A study of Mus musculus with 16 samples.

Results

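Any trastuzumab was compared with none in mouse genes counted from 16 whole tumour xenografts, 8 with the antibody and 8 without, with panobinostat as the second factor. All 16 libraries of the series entered the comparison, and they were assigned by treatment label alone. The tumours were AU565(pv), a human HER2-positive breast cancer line, grown in a mammary fat pad of SCID mice, a strain without mature T or B cells. All mice carried the same xenograft and all were dosed intraperitoneally, with tumours taken on day 2. The 4 vehicle mice received D5W and PBS, and the 4 trastuzumab mice received D5W and trastuzumab at 10 mg/kg. The 4 panobinostat mice received panobinostat at 15 mg/kg on days 0 and 1 with PBS, and the 4 combination mice received both drugs. The labels put the trastuzumab dose on day 0 in the treatment protocol and on day 1 in the series design. The host age is not given in the sources used here. Each library has its own mouse number.

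Trastuzumab binds HER2 on the tumour cell, and its Fc end can be bound by Fc gamma receptors of macrophages, neutrophils and natural killer (NK) cells. In a SCID host these innate cells are the ones left to answer it. Myeloid cells display peptides on MHC class II molecules, sense microbial sugars and other ligands through C-type lectins, and can be raised or restrained through paired activating and inhibitory receptors. The tumour is human and the counts are of mouse genes, and the share of human reads that aligned to mouse genes was not measured. The mouse rows of Krt8, a keratin of luminal epithelium, and of Erbb2, the HER2 gene, held 1960 to 3342 and 541 to 1187 counts in each library. In whole tumours, more cells of a type and more RNA per cell cannot be told apart.

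The mouse gene rows held high macrophage marker levels and low T cell marker levels. The summed level of 15 macrophage markers was 15700 to 21694 CPM (each library's counts scaled to a common total after TMM scaling) over the 16 libraries. Emr1 (F4/80) had 1060 to 1889 counts in each library. Cd3d and Cd3g, parts of the T cell receptor complex, had at most 4 counts in any library. The summed level of 11 T cell markers was 14.0 to 68.6 CPM, and Cd4 was at 20.7 ± 15.3 CPM with trastuzumab and 23.3 CPM without. Of the list's 5 tested members 0 were called, and Lck had a change of 0.73 ± 0.27 (adjusted p = 0.614) and Cd8a of 0.84 ± 0.34 (adjusted p = 0.692). Total counts were 4848244 to 8140782, and averaged 6254590 ± 1105780 with trastuzumab and 5909630 ± 585299 without (SD, n = 8 each). This difference was within the spread (exact permutation p within panobinostat strata = 0.469, two-sided, 4900 relabellings).

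Some upstream sequences of the genes that rose are shown here, because the copies of Bcl2a1 are near-identical and to show where the searched interferon and myeloid motifs lie. RefSeq (GRCm38.p6) listed a promoter of 300 bases, 250 before and 50 after the start, for 18 of the 25 called genes. Each run is 5′ to 3′ on the gene's own strand and lies upstream of the start in both RefSeq and GENCODE M21. Capitals mark a motif match. In Clec7a (chr6:129472780-129472929, minus strand) and Slamf8 (chr1:172590569-172590718, minus strand) they are the interferon-stimulated response element core, TTTCNNTTT. In Bcl2a1a (chr9:88956750-88956899, plus strand), Bcl2a1b (chr9:89199059-89199208, plus strand) and Bcl2a1d (chr9:88731915-88732064, minus strand) they are the PU.1 core, AGGAAG. In H2-Aa (chr17:34287824-34287973, minus strand) they are the NF-kappa B motif, GGGANTTCC.
Clec7a: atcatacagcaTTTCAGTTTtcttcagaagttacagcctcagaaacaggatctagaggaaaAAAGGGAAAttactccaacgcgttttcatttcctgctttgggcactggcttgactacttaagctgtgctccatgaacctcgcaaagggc
Slamf8: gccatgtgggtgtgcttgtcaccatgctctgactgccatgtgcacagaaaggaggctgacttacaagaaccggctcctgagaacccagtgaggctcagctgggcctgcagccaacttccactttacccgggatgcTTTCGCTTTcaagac
Bcl2a1a: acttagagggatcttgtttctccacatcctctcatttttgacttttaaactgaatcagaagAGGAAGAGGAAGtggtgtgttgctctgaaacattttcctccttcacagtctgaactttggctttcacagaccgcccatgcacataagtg
Bcl2a1b: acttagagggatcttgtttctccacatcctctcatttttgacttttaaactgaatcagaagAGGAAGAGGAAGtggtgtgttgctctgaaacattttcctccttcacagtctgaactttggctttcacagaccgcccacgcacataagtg
Bcl2a1d: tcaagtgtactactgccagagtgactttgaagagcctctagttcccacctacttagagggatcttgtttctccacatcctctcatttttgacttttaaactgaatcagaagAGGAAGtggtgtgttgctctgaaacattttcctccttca
H2-Aa: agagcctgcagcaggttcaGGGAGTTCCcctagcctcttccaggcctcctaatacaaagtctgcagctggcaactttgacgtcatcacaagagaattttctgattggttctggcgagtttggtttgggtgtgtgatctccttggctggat

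The windows of Bcl2a1a and Bcl2a1b differ at 1 of 150 positions. Over the whole promoters, the aligned bases of Bcl2a1a were 99.2% identical to those of Bcl2a1b and 98.0% to those of Bcl2a1d. Both strands were searched for each motif in all 10229 promoters of tested genes and in the 18. The ISRE core was in 8.02% of all and in 7 of the 18, and the PU.1 core was in 33.7% of all and in 10 of the 18. These counts take near-identical promoters as separate genes. Bcl2a1a and Bcl2a1d are among the 7, and Bcl2a1a, Bcl2a1b and Bcl2a1d among the 10. Gm5150 and Sirpb1a, whose upstream bases are also alike, are in both counts. The NF-kappa B motif was in 2.36% of all and in 1 of the 18, H2-Aa. The gamma-activated site TTCNNNGAA was in 6.92% of all and in 2 of the 18. The MHC class II X1 box core CCNAGNNAC was in 1845 of the 10229 and in 4 of the 18. Matches of different motifs can overlap. These are counts of letters, with no test, and the motif list was fixed with earlier results of these data known.

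With trastuzumab, 25 mouse genes rose and none was called lower. They include Il1rn, the interleukin 1 receptor antagonist, Clec7a (dectin-1), which senses fungal glucans, 5 MHC class II genes and 3 copies of the survival gene Bcl2a1. Called means a Benjamini-Hochberg adjusted p under 0.05 in edgeR's quasi-likelihood F test over 15610 genes, with panobinostat as a factor. The 25 are 0.16% of the genes tested. Their log2 changes ran from 0.39 to 1.53, with a median of 0.76, and the median over all genes tested was -0.01. At an unadjusted p under 0.05, 652 genes (4.18%) were higher and 322 (2.06%) were lower. The smallest adjusted p among the lower genes was 0.111, for Gdf6. When 1 library was left out the count lay between 3 and 36. It fell to 16 without vehicle 6, 12 without vehicle 29, 16 without trastuzumab 12 or 15 and 12 without trastuzumab 24. It fell to 11 without panobinostat 7, 3 without panobinostat 13, 15 without combination 2 and 13 without combination 22.

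**Figure D1:**
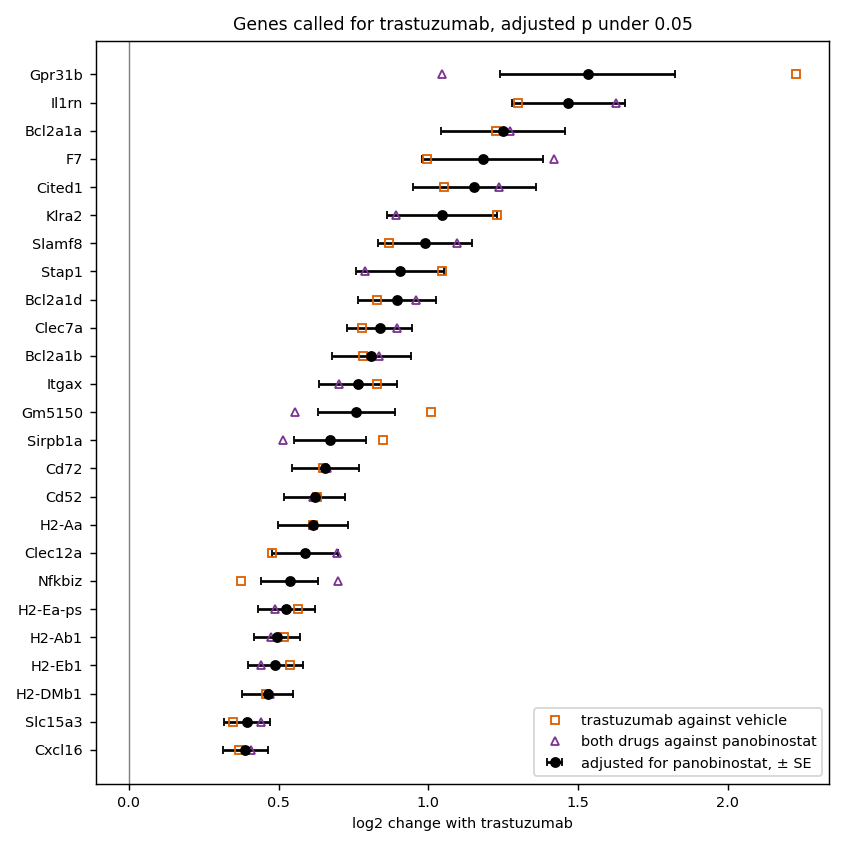
The 25 called genes with their log2 change for trastuzumab. Filled points are the change adjusted for panobinostat with its standard error, open squares the change without panobinostat and open triangles the change with it. Every point lies above 0, from 0.35 for Slc15a3 to 2.23 for Gpr31b without panobinostat. The Gpr31b mean with vehicle was 0.75 CPM, which is few reads.

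Il1rn and Clec7a were the 2 genes with the smallest adjusted p. Il1rn (chr2, ENSMUSG00000026981) was at 23.2, 25.0, 28.2 and 31.4 CPM in the 4 vehicle libraries and at 58.7, 60.5, 65.0 and 80.7 CPM in the 4 trastuzumab libraries. With panobinostat alone it was at 20.6, 33.5, 34.0 and 44.4 CPM, and with both drugs at 70.4, 70.5, 90.9 and 175.9 CPM. No library with trastuzumab was as low as any without it. The adjusted log2 change was 1.47 ± 0.19 (SE; adjusted p = 0.00359, edgeR). Its change was 1.30 ± 0.27 without panobinostat and 1.63 ± 0.27 with it.

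Clec7a was at 93.7 to 170.3 CPM (median 111.1) without trastuzumab and at 168.5 to 284.4 CPM (median 199.7) with it. The ranges met at panobinostat 4, the highest library without the antibody, but within each level of panobinostat the groups were apart. Its log2 change was 0.84 ± 0.11 (SE; adjusted p = 0.00359). GENCODE M21 types Clec7a (chr6:129461591-129472779) as a polymorphic pseudogene.

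**Figure D2:**
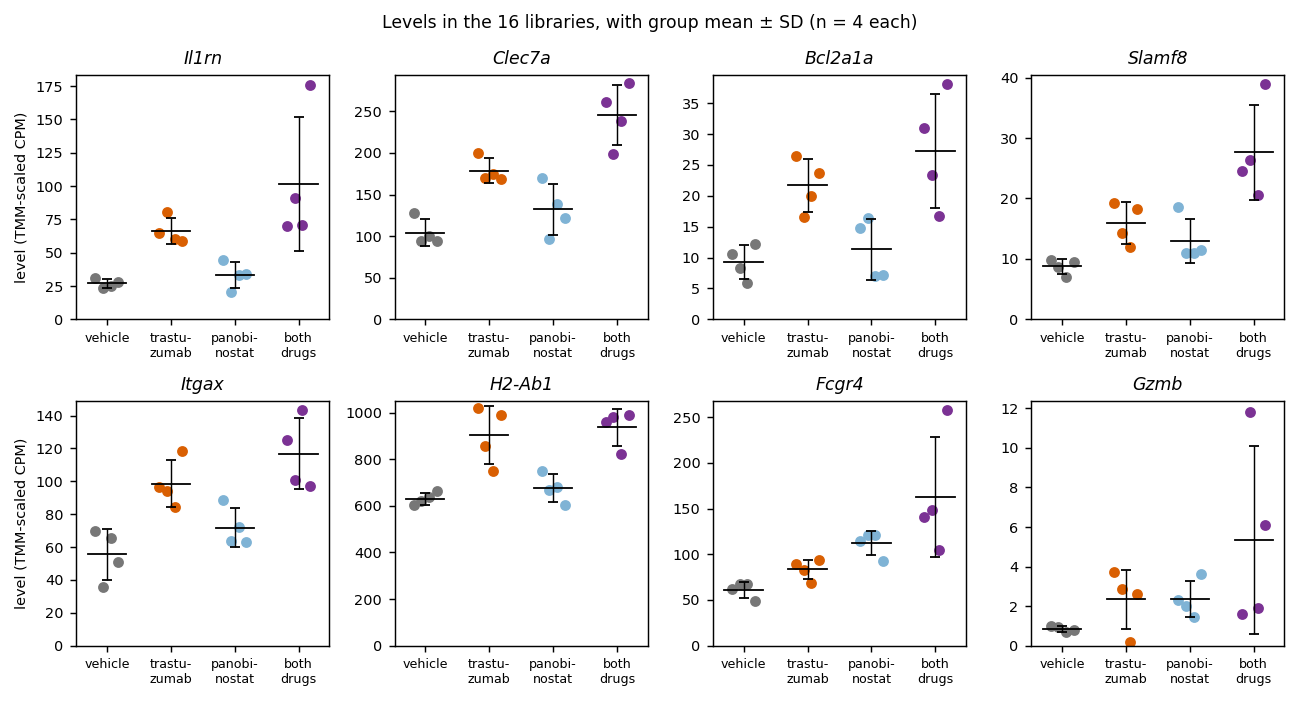
TMM-scaled CPM in each of the 16 libraries for 8 genes, with the mean and SD of each group of 4. Il1rn and H2-Ab1 show all 8 antibody libraries above the 8 without it, while for Fcgr4 and Gzmb the 8 and the 8 overlap. For Fcgr4 the trastuzumab libraries all lie above the vehicle libraries.

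The 3 tested Bcl2a1 copies, inhibitors of cell death in myeloid and mast cells, were the called members of the BCL2 family. Bcl2a1a was at 5.91 to 16.4 CPM (median 9.51) without trastuzumab and 16.6 to 38.0 CPM (median 23.5) with it, a log2 change of 1.25 ± 0.21 (adjusted p = 0.0182). Bcl2a1b was at 17.7 to 28.1 CPM without and 31.8 to 67.6 CPM with it, and Bcl2a1d at 17.9 to 33.7 CPM without and 31.5 to 82.3 CPM with it. Bcl2a1a and Bcl2a1b did not overlap between the 8 and the 8. Bcl2a1d overlapped there, but within each level of panobinostat its groups were apart. Because the copies are near-identical, the split of reads between them is uncertain. The counts of the 3 copies were therefore also added into 1 row, an alternative chosen after seeing the data. The sum averaged 110.2 ± 34.7 CPM with trastuzumab and 57.1 ± 10.4 CPM without (SD, n = 8 each), with no overlap, and a log2 change of 0.94 ± 0.13 (adjusted p = 0.00396). The other 13 of 16 tested family members were not called, and the family median was 0.08. Over all genes tested, 0.16% were called. Mcl1, a survival gene of the same family, changed by 0.14 ± 0.08 (adjusted p = 0.843). The number of called Bcl2a1 copies was 3 in 15 of the 16 fits that left out a library and 1 without panobinostat 13. It was 1 with no panobinostat term and 2 with the luminal score below as a covariate.

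MHC class II molecules take peptides to the surface of antigen-presenting cells. Of 11 tested genes of the pathway, 5 rose, 10 had a positive change and the median was 0.43. Over all 15610 genes tested, 25 (0.16%) were called and 7362 had a positive change. H2-Ab1, the beta chain of I-A, was at 601.5 to 747.2 CPM without trastuzumab and 747.9 to 1020 CPM with it, a log2 change of 0.50 ± 0.08 (adjusted p = 0.018), with no overlap. H2-Aa, the I-A alpha chain, changed by 0.61 ± 0.12 (adjusted p = 0.0347), and its ranges of 725.9 to 1020.6 CPM and 904.6 to 1637 CPM overlapped. The H2-Eb1 change was 0.49 and that of H2-DMb1, a peptide editor, was 0.46. H2-Ea-ps, an E alpha row that GENCODE types as a polymorphic pseudogene, changed by 0.53. Of the 6 others, Cd74, the invariant chain, had a change of 0.43 ± 0.10 (adjusted p = 0.122) and Ciita, the class II transactivator, 0.36 ± 0.12 (adjusted p = 0.513). H2-Oa was the single negative one, at -0.14. The count of called class II genes was 5 without trastuzumab 20 or combination 16, 4 without panobinostat 4 and 3 without vehicle 21, trastuzumab 15, panobinostat 8 or combination 11. It was 2 without vehicle 3, 6 or 29, 1 without trastuzumab 12 or 24, panobinostat 7, combination 2 or combination 22, and 0 without panobinostat 13. It was 1 with no panobinostat term and 0 with the luminal score below as a covariate.

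**Figure D3:**
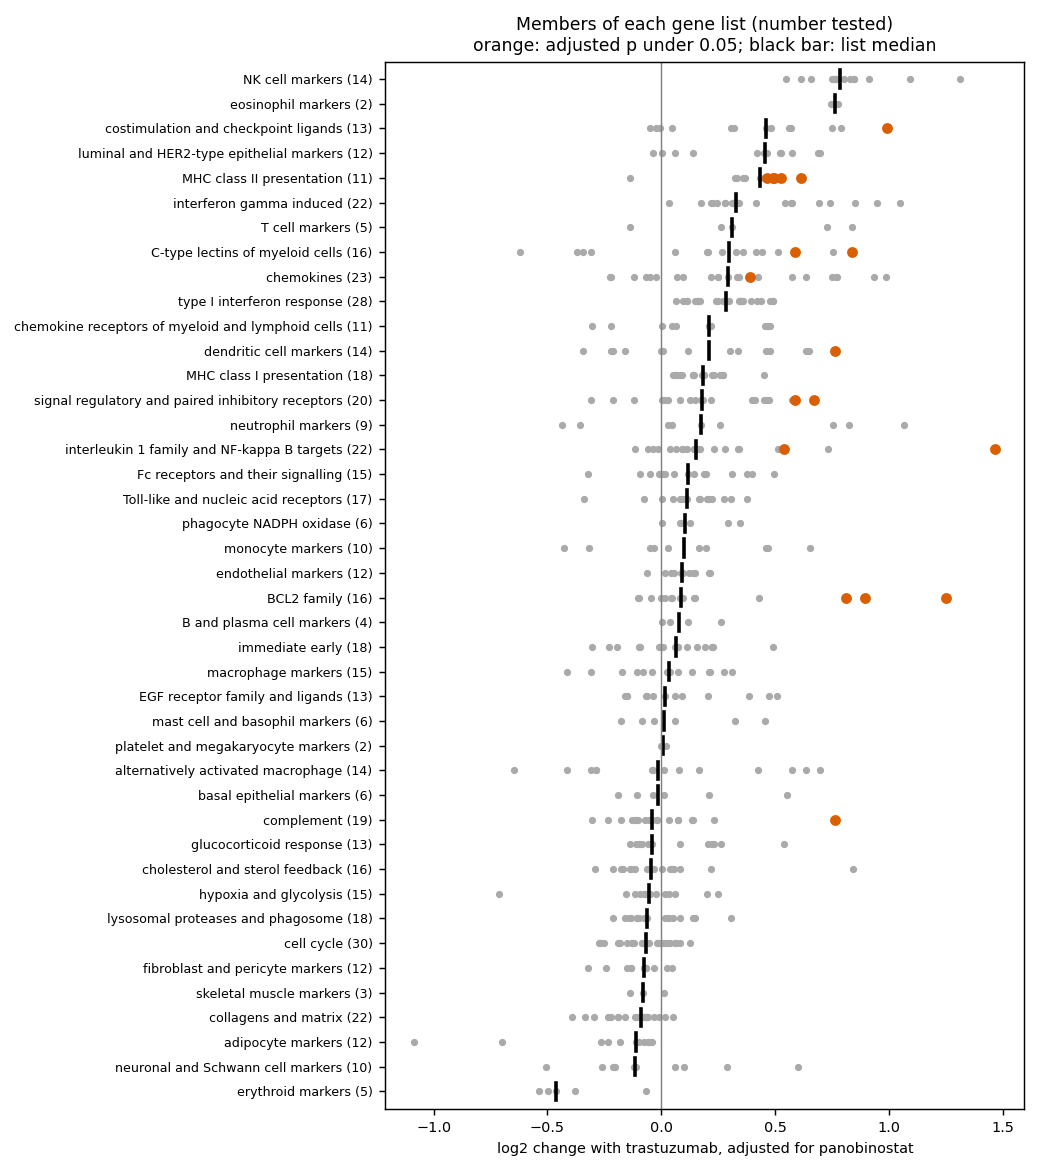
The log2 change of each tested member of 42 gene lists, with the list median as a black bar and called members in orange. MHC class II and BCL2 family hold 5 and 3 called members, and the NK cell list has a median of 0.78 with 0 called.

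Several surface receptors were called. Slamf8, a SLAM family receptor of macrophages, was at 6.95 to 18.5 CPM without trastuzumab and 11.9 to 38.9 CPM with it, a log2 change of 0.99 ± 0.16 (adjusted p = 0.018). Itgax, the CD11c chain of a complement receptor and a dendritic cell marker, was at 35.6 to 88.3 CPM without and 84.5 to 143.6 CPM with, a change of 0.76 ± 0.13 (adjusted p = 0.019). The ranges with and without trastuzumab overlapped for both. Over all 15610 genes tested, 25 (0.16%) were called. Of 16 tested C-type lectins, 2 were called: Clec7a and Clec12a, an inhibitory receptor for uric acid crystals, at 0.59 ± 0.11. Of the 16 lectins, 12 had a positive change, and the lowest was Cd209d at -0.62 ± 0.24 (adjusted p = 0.666). Clec12a was also in the list of paired receptors, with Sirpb1a, an activating signal regulatory protein, at 0.67 ± 0.12 (2 of 20 called). Clec12a lost its call without vehicle 3, 21 or 29, trastuzumab 12, 15 or 24, panobinostat 7 or 13, or combination 2 or 22, which left 1 lectin called. Sirpb1a lost its call without vehicle 6, 21 or 29, trastuzumab 15 or 24, panobinostat 13, or combination 2 or 22. The lectin count was 3 without trastuzumab 20. With no panobinostat term or with the luminal score, 1 lectin and 0 paired receptors were called, and DESeq2 called 4 lectins. Itgax lost its call without vehicle 29, trastuzumab 24, or panobinostat 7 or 13, and Slamf8 without panobinostat 13. Both lost it with no panobinostat term or with the luminal score. Sirpb1a and Klra2 (1.05 ± 0.18, a Ly49 receptor) belong to multigene families, so their reads may be shared with relatives.

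Of the interleukin 1 and NF-kappa B list, 2 of 22 were called, beside 0.16% of all genes tested. Besides Il1rn, Nfkbiz, the inducible IkappaB zeta, changed by 0.54 ± 0.09 (adjusted p = 0.0233). It was at 18.4 to 26.2 CPM without trastuzumab and 25.0 to 36.6 CPM with it. The agonist Il1b changed by 0.34 ± 0.13 (adjusted p = 0.666) and the inflammatory cytokine Tnf by 0.73 ± 0.24 (adjusted p = 0.502). Tnf was at 2.36 to 6.84 CPM without trastuzumab and 4.37 to 13.6 CPM with it, which overlapped. The Tnf change was 0.25 ± 0.31 without panobinostat and 1.22 ± 0.31 with it, and its interaction was not called. Cxcl16, which binds Cxcr6, was the 1 called of 23 chemokines, at 0.39 ± 0.07 (adjusted p = 0.0387). Cxcl16 kept its call in 4 of the 16 fits that left out a library, those without trastuzumab 20, panobinostat 4, or combination 11 or 16. It also lost it with no filter, with averaged group means, with no panobinostat term and with the luminal score. Nfkbiz lost its call without vehicle 29, trastuzumab 12 or 15, panobinostat 7 or 13, or combination 22, and with the luminal score, which left 1 called gene in its list.

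The remaining called genes have varied roles. Gpr31b, a G protein-coupled receptor, changed by 1.53 ± 0.29 and was at 0.20 to 3.56 CPM without trastuzumab and 2.85 to 5.07 CPM with it. Panobinostat 4 was inside the antibody range. The mean with vehicle was 0.75 CPM, with 0.20 CPM in vehicle 3, so the size of the Gpr31b change rests on few reads. F7, coagulation factor VII, was at 0.51 to 1.54 CPM and 1.65 to 2.96 CPM, with no overlap, and changed by 1.18 ± 0.20 (adjusted p = 0.019). Cited1, a transcriptional co-regulator, changed by 1.15 ± 0.21, and Stap1, an adaptor of haematopoietic cells, by 0.91 ± 0.15. Cd52, a small leukocyte glycoprotein, changed by 0.62 ± 0.10. The genes Gm5150, Cd72, H2-Eb1, H2-Aa and Slc15a3 are named here although the naming rule left them out, and were chosen after their values were seen. Gm5150, a predicted symbol, changed by 0.76, Cd72, an inhibitory receptor, by 0.66 and Slc15a3, a lysosomal peptide transporter, by 0.39. The exons of Cd52, Cd72, Cxcl16 and Slc15a3 overlap those of Crybg2, Tesk1, Zmynd15 and Tmem132a on the opposite strand, and the kit does not mark strand. The exons of Bcl2a1b overlap those of Gm29094 on the same strand.

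**Figure D4:**
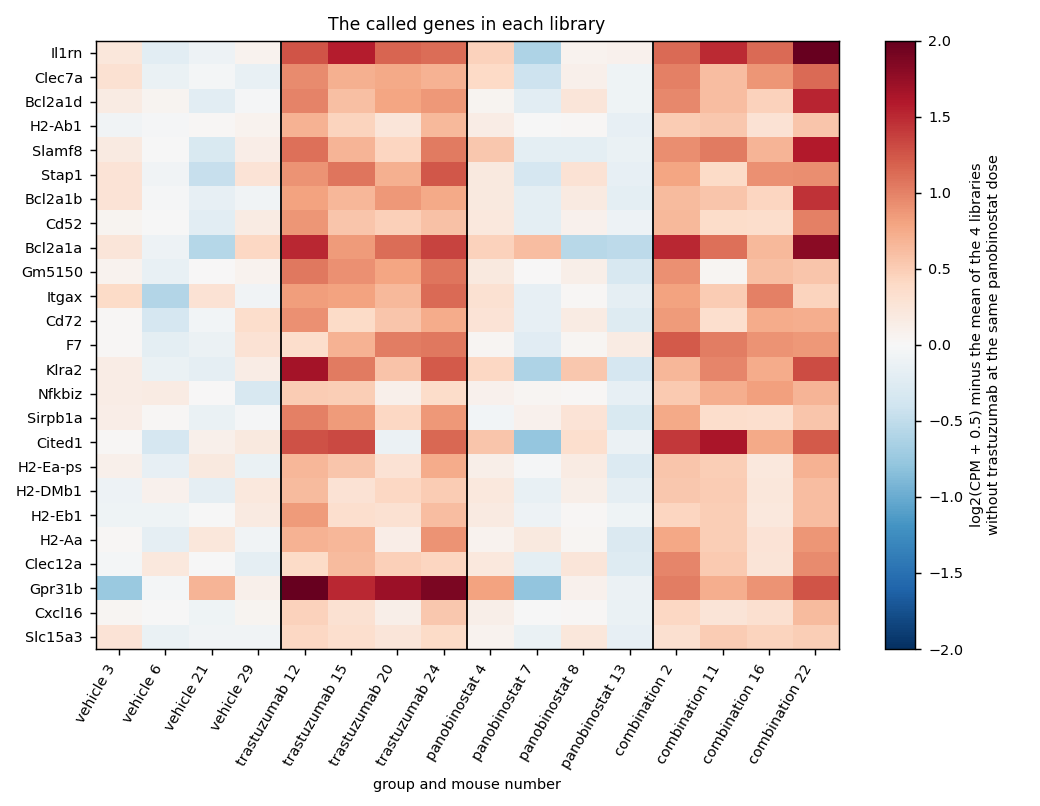
The called genes in each library, as the difference of log2(CPM + 0.5) from the mean of the 4 libraries without trastuzumab at the same panobinostat dose. The median over the 25 genes is 0.48 to 0.88 in the trastuzumab libraries, 0.52 to 0.88 in the combination libraries, -0.08 to 0.10 in vehicle and -0.17 to 0.20 in panobinostat.

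The groups of 8 did not overlap for 7 genes (0.0448% of those tested), all higher with trastuzumab, and 6 of these were called: Il1rn, H2-Ab1, Bcl2a1a, Bcl2a1b, F7 and Clec12a. The other was Fyb, an adaptor of myeloid and T cells, at 0.29 ± 0.06 (adjusted p = 0.122). Within each level of panobinostat, 24 genes (0.154%) were higher in both strata with no overlap, 19 of them called. At the edge of the threshold were Slamf9, Emr4 and Arhgap25, each with an adjusted p of 0.0522 and changes of 0.48, 1.02 and 0.47.

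The effect of trastuzumab was also taken at each level of panobinostat. The 25 genes were chosen on the mean of these effects, so their agreement follows in large part from that choice. Each was higher at an unadjusted p under 0.05 both without and with panobinostat, as were 92 of all genes tested (0.589%). No gene was called for the interaction (279 at an unadjusted p under 0.05, of which Gpr31b was the only one of the 25), and the smallest adjusted p was 1.00. In 8-library fits of their own, 279 of 14834 genes (1.88%) were higher at that level without panobinostat and 413 (2.78%) with it. These lists shared 79 genes, 28.3% of the first and 19.1% of the second. The lower lists held 256 and 194 genes and shared 7, 2.73% and 3.61%. Over the 4-group fit, 0 genes were called for trastuzumab without panobinostat (549 at an unadjusted p under 0.05) and 0 with it (700).

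**Figure D5:**
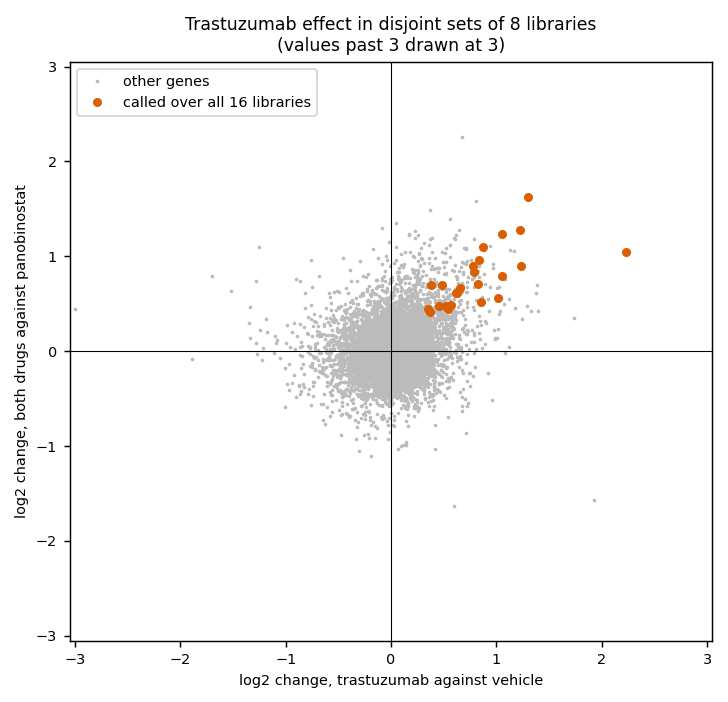
The log2 change for trastuzumab without panobinostat (x) against that with it (y), from different libraries, for the 14834 genes in both 8-library fits. Called genes are in orange, except F7, which is in neither fit. The called genes lie in the upper right, and over all genes in both 8-library fits Pearson's r is 0.208 and Spearman's rho 0.140, as a description across genes.

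The panobinostat term of the same additive fit rests on the same 16 libraries, so its values are given only side by side. Over all genes, 342 (2.19%) were higher and 161 (1.03%) lower with panobinostat. For the 25 genes its log2 change ran from -0.50 (F7) to 1.07 (Gm5150), with a median of 0.32. Gm5150 changed by 1.07 with panobinostat (adjusted p = 0.000344) and 0.76 with trastuzumab, and Cited1 by 1.05 (adjusted p = 0.00697) and 1.15. Il1rn changed by 0.47 with panobinostat (adjusted p = 0.229) and 1.47 with trastuzumab, and H2-Ab1 by 0.08 (adjusted p = 0.759) and 0.50.

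The Fc receptors that bind the antibody did not pass the test. Of 15 genes of Fc receptors and their signalling, 0 were called (5 were higher at an unadjusted p under 0.05), and the median was 0.12. Fcgr4, a mouse activating receptor for IgG2 classes, was at 48.5 to 121.1 CPM without trastuzumab and 68.9 to 257.5 CPM with it, a change of 0.50 ± 0.14 (adjusted p = 0.357). Without panobinostat the groups were apart, at 48.5 to 67.4 CPM with vehicle and 68.9 to 93.6 CPM with trastuzumab. They overlapped with panobinostat, at 92.9 to 121.1 CPM with it alone and 104.6 to 257.5 CPM with both drugs. Fcgr1, the high-affinity receptor, changed by 0.31 ± 0.10 (adjusted p = 0.471), and the inhibitory Fcgr2b by 0.02 ± 0.13 (adjusted p = 0.996). DESeq2 called 0 of Fcgr1, Fcgr2b, Fcgr3, Fcgr4 and Fcer1g.

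NK cell markers had positive changes without a call. All 14 tested markers were higher, 9 at an unadjusted p under 0.05, and the median was 0.78. Of all 15610 genes tested, 7362 had a positive change and 652 were higher at that level. Gzmb, a granzyme of cytotoxic cells, was at 0.70 to 3.61 CPM without trastuzumab and 0.21 to 11.8 CPM with it, a change of 1.31 ± 0.43 (adjusted p = 0.502). Ncr1 changed by 0.83 ± 0.33 (adjusted p = 0.666). The summed NK level was 39.1 to 118.1 CPM without trastuzumab and 46.8 to 214.1 CPM with it, so the groups overlapped. Klra8 was at 0 in all vehicle and panobinostat libraries. It had reads in some library of each antibody group, which very few reads would meet.

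The interferon lists held positive changes without a call. All 22 genes induced by interferon gamma had positive changes, with a median of 0.33 and 0 called, and all 28 type I interferon genes did too, with a median of 0.29 and 0 called. Over all 15610 genes tested, 7362 had a positive change. Cxcl10, an interferon-induced chemokine, had a change of 0.85 ± 0.29 (adjusted p = 0.513) and Cxcl9 of 0.74 ± 0.31 (adjusted p = 0.744). Cxcl10 was at 6.26 to 54.5 CPM without trastuzumab and 12.4 to 161.3 CPM with it. With both drugs it was at 96.9 and 161.3 CPM in combination 11 and 22, and at 36.6 and 31.2 CPM in combination 2 and 16. With panobinostat alone it was at 31.3 to 54.5 CPM. Cxcl9 was at 163.9 and 227.5 CPM in combination 11 and 22, and at 56.5 and 46.7 CPM in combination 2 and 16. Its range with panobinostat alone was 46.9 to 83.7 CPM.

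Markers of other cells were set beside these results. The macrophage list had a median of 0.03, with 0 of 15 called. The dendritic cell list had a median of 0.21, with 1 of 14 called, Itgax, and 4 higher at an unadjusted p under 0.05. Of the 14, 10 had a positive change, against 7362 of all 15610 genes tested. The lowest was Cd209a at -0.34 ± 0.18 (adjusted p = 0.827). The members higher at that level besides Itgax were these. Cd86, a costimulator, had a change of 0.46 ± 0.12 (adjusted p = 0.261), Clec9a, a lectin of cross-presenting dendritic cells, of 0.65 ± 0.24 (adjusted p = 0.605) and Irf8, a factor of dendritic cell and monocyte development, of 0.30 ± 0.13 (adjusted p = 0.754). Its summed level was 358.1 to 445.6 CPM with vehicle and 403.7 to 547.5 CPM with trastuzumab, and 393.2 to 502.6 CPM with panobinostat and 458.3 to 631.9 CPM with both drugs. These ranges overlapped at each level of panobinostat, and the list's part in the MHC class II and Itgax results was not tested. The luminal and HER2-type epithelial list, 12 genes, had a median of 0.46 with 0 called, led by Epcam at 0.70 ± 0.20 (adjusted p = 0.337) and Krt19 at 0.69. Of the 12, 11 had a positive change and 5 were higher at an unadjusted p under 0.05. Of all 15610 genes tested, 7362 had a positive change and 652 (4.18%) were higher at that level. Erbb2 changed by 0.06 ± 0.18 (adjusted p = 0.996) and Krt8 by 0.00 ± 0.11. The mean log2 CPM of this list was 5.46 ± 0.28 with trastuzumab and 5.11 ± 0.23 without (SD, n = 8 each), with ranges of 5.13 to 5.85 and 4.83 to 5.50. With this score as a covariate, 5 genes were called, Il1rn, Clec7a, Bcl2a1d, Bcl2a1b and Stap1, and the median change of the 25 was 0.75. Its part in the result was not tested. The eosinophil list, 5 markers, was noticed after its values were seen. Its summed level was 4.35 to 7.44 CPM without trastuzumab and 8.01 to 13.2 CPM with it, with no overlap. Il5ra was at 0 in all panobinostat libraries. Of the 5 markers, 2 passed the low-count filter and 0 were called, so this sum rests on few reads. The part of the eosinophil list in the result was not tested.

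No gene was called lower with trastuzumab. The 5 of smallest unadjusted p were Gdf6, Creb3l1, Kank2, Npl and Hsd11b2, with changes of -0.86, -0.43, -0.35, -0.47 and -0.82. Kank2, a regulator of cell adhesions, was at 62.9 to 100.6 CPM without trastuzumab and 55.4 to 63.9 CPM with it (adjusted p = 0.153). Creb3l1, a transcription factor of secretory cells, was at 20.7 to 27.8 CPM and 14.4 to 23.2 CPM (adjusted p = 0.138). The ranges with and without trastuzumab overlapped for both. Within each level of panobinostat, Kank2 and Gdf6 were lower with trastuzumab with no overlap, and Creb3l1 overlapped. The 5 genes were picked by their p, so such separation follows in large part from that choice. The share of all genes lower with no overlap at both levels was not counted. DESeq2 called Kank2 (adjusted p = 0.0254), Creb3l1 (adjusted p = 0.0262) and Npl lower.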

How the data were processed

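RNA was sequenced from 16 whole xenografts. The file deposited by the authors is a single matrix of unnormalized counts, with a row for each mouse symbol. CASAVA 1.8.2, TopHat2 and HTSeq are named with build mm10, per the submitters' processing notes. Their settings, the annotation and whether human reads were removed are not stated there. Of 24681 symbols, 1327 had a dot in all 8 panobinostat-treated libraries. They were dropped, and 0 of them would reach the low-count filter if a dot meant 0. The other 23354 had numbers in all 16 libraries.

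Counts were fitted with edgeR 4.0.16 (R 4.3.3), with TMM scaling and filterByExpr over the 4 groups, which left 15610 genes. The fit had terms for panobinostat and trastuzumab, and a fit of 4 group means gave the effect at each level of panobinostat and the interaction. The quasi-likelihood F test was adjusted by Benjamini-Hochberg over all genes tested, with a threshold of 0.05, and the common biological coefficient of variation was 0.180. The standard error of a log2 change is its size over the square root of F. Levels are TMM-scaled CPM. The scripts were tested on simulated data. Alternatives used other scalings, no filter, covariates, limma 3.58.1, DESeq2 1.42.0 and 16 fits without 1 library each. No library was treated as a repeat of another: within groups the chi-square per degree of freedom was 4.20 or more. Labels give each mouse its own number but not litters or cages, so p-values measure the spread between these samples.

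Genes were named as the 10 called genes of largest change each way, the 10 of smallest adjusted p, up to 3 called members of each of 42 lists and a set of Fc receptor, cytokine and tumour genes, with predicted loci skipped and a mean of at least 1 CPM. Where under 5 were called in a direction, the 5 of smallest p were added. The lists and the comparison were chosen with earlier results of these data known. Genes named for their position are from GENCODE M21 (mm10), and promoters from RefSeq.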

Additional observations from a re-analysis of the deposited data

Results flagged for a closer look

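Of 184 groups of 4 libraries, taken for the named genes, 7 (3.80%) held 1 library far from the other 3, and chance alone gives about 1 in 20. Slamf8 was at 18.5 CPM in panobinostat 4 against 11.49 in the nearest library. Bcl2a1b was at 67.6 CPM in combination 22 against 38.0, and Fcgr2b was at 647.2 CPM there against 422.2. Ccl5 was at 59.5 CPM in trastuzumab 12 against 17.1. Creb3l1 was at 20.9 CPM in combination 2 against 14.8, and Slc15a3 was at 42.3 CPM in vehicle 3 against 33.4. Gdf6 was at 1.52 CPM in panobinostat 7 against 1.78.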

How the results depend on the processing

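The count of 25 called genes, all higher, was 28 with DESeq2's size factors in edgeR, 28 with total-count scaling, 27 with limma voom, 26 with the macrophage score as a covariate, 26 with the Bcl2a1 copies summed (an alternative chosen after seeing the data) and 23 without a filter or from 4 averaged group means. It was 5 with no panobinostat term and 5 with the luminal score as a covariate. It was 51 with the adipocyte score (48 higher, 3 lower) and 66 with DESeq2 (63 higher, 3 lower). The cause was not tested. Leaving out 1 library gave 3 to 36. Without panobinostat, where no gene was called, its 8 libraries alone called 1 and DESeq2 called 12, and leaving out 1 library gave 0 to 1. With panobinostat, DESeq2 called 15 and leaving out 1 library gave 0. The interaction called 0 in the alternatives run, DESeq2 and limma voom included. The change of all 25 genes stayed positive in the 26 alternatives fixed at the start. Il1rn, Clec7a and Bcl2a1d were called in all 16 fits without 1 library, and 6 more in 15 of them, all lost without panobinostat 13. Slc15a3 was called in 3 of the 16, and Cxcl16, Gpr31b, H2-Aa and H2-Eb1 in 4. Genes at 1 or 2 CPM or less in a group, such as Gpr31b, F7 and Gdf6, rest on few reads at these depths. No paired analysis was possible because every mouse number occurs once over the 16 libraries.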
